A study of Homo sapiens with 2 samples.

Results

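The genes described here are those of the human mitochondrial genome, chosen as all rows of a deposited gene table whose locus lies on the mitochondrial chromosome. There are 37 of them among 58302 rows: 13 mRNA genes, 2 rRNA genes and 22 tRNA genes. The libraries come from polyadenylated RNA of Tu212, a line of epithelial origin from a head and neck squamous cell cancer. Cells in the PRMT5 overexpression group received the plasmid pEZ-PRMT5, cells in the vector control group received pEZ-vector, and both were treated for 48 h. Each group has 1 library, so no difference below has a replicate check, no test between the groups was possible, and the values describe these libraries. Intervals are exact 95% Clopper-Pearson intervals of the read split unless a normal approximation is stated, and they cover counting error only.

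Reads on genes numbered 19908258 in the PRMT5 overexpression library and 14119997 in the vector control. PRMT5, the arginine methyltransferase encoded by the plasmid, had 5770 reads in the PRMT5 overexpression library and 2068 in the vector control. That is 293 against 145 CPM (reads on the gene scaled to library size by TMM), a 2.02-fold higher level. Of 8 epithelial markers, 8 had reads, with a summed level of 9930.2 CPM in the PRMT5 overexpression library and 8961 CPM in the vector control. Most fibroblast, leukocyte and endothelial markers had few reads, with exceptions in COL1A1 and CD68. Of the 10 fibroblast markers 6 reached 10 reads in either library and FAP was at 0, with summed levels of 82.2 against 99.4 CPM. COL1A1 made up most of that sum, with 1557 reads in the PRMT5 overexpression library and 1321 in the vector control. The 6 had a median log2 ratio of -1.21, and 3 were at least 1.5-fold lower, against 5.33% of all genes: COL1A2 with 7 against 26 reads, COL3A1 with 2 against 11 and DCN with 0 against 12. Of the 8 leukocyte markers 2 did so, with 17.3 against 21.9 CPM, and of the 6 endothelial markers 2 did so, with CDH5 and KDR at 0 and 4.51 against 6.03 CPM. Their part in the results below was not tested.

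The mitochondrial genome encodes core subunits of the respiratory chain and of ATP synthase, together with the rRNAs and tRNAs that translate them inside the organelle; all other subunits come from nuclear genes. Both strands are transcribed by the polymerase POLRMT as long precursors. Most genes lie on the plus strand of the reference and are read from the heavy-strand promoter, while MT-ND6 and a set of tRNAs lie on the minus strand and are read from the light-strand promoter. tRNAs punctuate the mRNAs and rRNAs, and cutting at their ends by RNase P and ELAC2 releases the transcripts. MTPAP then adds poly(A) tails to most mRNAs, short ones to the rRNAs, and the LRPPRC and SLIRP complex holds many of the mRNAs stable. Cut tRNAs carry a CCA end and no tail, so tRNA reads in a poly(A) library need not come from finished tRNAs.

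The tRNAs that held 50 or more reads in both libraries are printed because the largest well-read differences among mitochondrial genes were those of the minus strand. Sequences are from GENCODE release 29 (GRCh38), in the direction of the RNA with T for U, and capitals mark the anticodon, found as the expected letters between a T and a purine in the middle of the tRNA. The first 6 are minus-strand genes and the last 4 plus-strand genes.
MT-TA (alanine, chrM:5587-5655, minus): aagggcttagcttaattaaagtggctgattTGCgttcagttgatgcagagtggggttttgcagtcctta
MT-TN (asparagine, chrM:5657-5729, minus): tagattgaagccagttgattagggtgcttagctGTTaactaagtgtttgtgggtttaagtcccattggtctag
MT-TC (cysteine, chrM:5761-5826, minus): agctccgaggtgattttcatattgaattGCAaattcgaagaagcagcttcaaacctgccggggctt
MT-TY (tyrosine, chrM:5826-5891, minus): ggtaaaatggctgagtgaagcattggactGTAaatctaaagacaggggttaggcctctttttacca
MT-TS1 (serine, chrM:7446-7514, minus): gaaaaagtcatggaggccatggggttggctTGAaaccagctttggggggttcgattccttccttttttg
MT-TE (glutamate, chrM:14674-14742, minus): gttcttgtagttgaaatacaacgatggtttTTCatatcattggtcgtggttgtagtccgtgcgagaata
MT-TF (phenylalanine, chrM:577-647, plus): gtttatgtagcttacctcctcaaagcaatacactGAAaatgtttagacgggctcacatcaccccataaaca
MT-TV (valine, chrM:1602-1670, plus): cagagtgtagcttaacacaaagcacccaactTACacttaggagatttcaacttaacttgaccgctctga
MT-TL1 (leucine, chrM:3230-3304, plus): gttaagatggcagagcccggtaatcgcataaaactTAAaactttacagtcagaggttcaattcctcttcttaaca
MT-TT (threonine, chrM:15888-15953, plus): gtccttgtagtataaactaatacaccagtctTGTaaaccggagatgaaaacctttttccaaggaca

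The strands differ in base composition. G made up 23.5% to 36.1% of the 8 minus-strand tRNAs and 35.6% of MT-ND6, against 10.3% to 19.1% of the 14 plus-strand tRNAs and 6.28% to 16.2% of the 12 plus-strand mRNAs. C made up 7.05% of MT-ND6 and a median of 33.4% of the plus-strand mRNAs. The genes stand close together: of 36 neighbouring pairs, 5 overlap, 20 abut with no base between them, and 3 have more than 10 bases between them. How reads that span 2 genes were assigned, and whether strand was used, is not stated in the labels, which name an Illumina kit of the NEB Ultra RNA type. Reads from a gene and from RNA antisense to it can therefore not be told apart, and this touches every minus-strand gene, whose position is also covered by the precursor of the plus strand.

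Mitochondrial genes took a larger part of the reads in the PRMT5 overexpression library. They held 1502259 reads, or 7.55% of all reads, in that library, and 951944 reads, or 6.74%, in the vector control. The mRNAs took 5.14% of all reads against 4.50%, and the rRNAs 2.39% against 2.24%. The tRNAs took 0.0128% against 0.00948%, so every class had the larger share in the PRMT5 overexpression library. In such bulk libraries, fewer cells of a type and less RNA per cell cannot be told apart. No member had 0 reads in either library, and 36 of 37 reached 10 reads in either of them. The exception was MT-TD, the aspartate tRNA, with 5 reads in the PRMT5 overexpression library and 8 in the vector control.

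**Figure D1:**
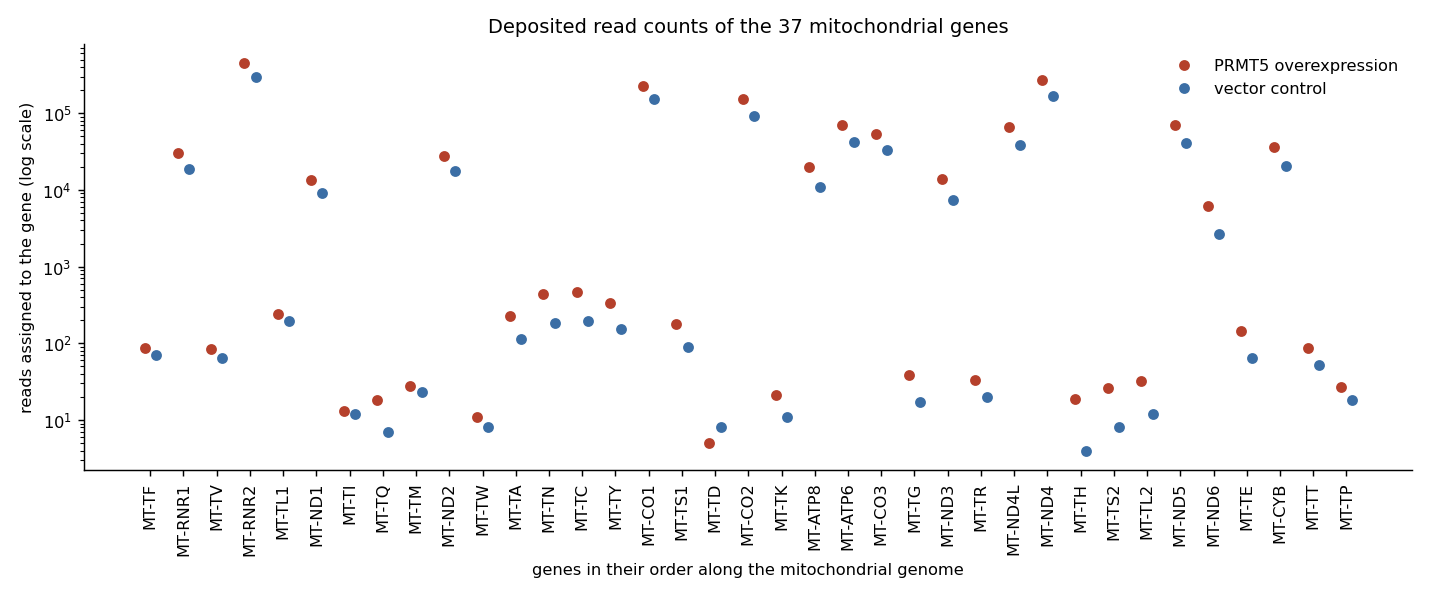
Deposited reads of each of the 37 mitochondrial genes on a log axis, with genes in their order along the genome; each gene has 1 point for the PRMT5 overexpression library (left, red) and 1 for the vector control library (right, blue). MT-RNR2 is highest with 446188 and 297200 reads, the tRNAs lie between 4 and 462 reads, and only MT-TD has fewer reads in the PRMT5 overexpression library, which was the deeper library.

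Within the mitochondrial reads the mRNA and rRNA shares shifted by little. The mRNAs made up 68.1% of them (interval 68.1% to 68.2%) in the PRMT5 overexpression library and 66.7% (66.6% to 66.8%) in the vector control. The rRNAs made up 31.7% (31.6% to 31.8%) against 33.2% (33.1% to 33.3%). The tRNAs made up 0.170% (0.163% to 0.176%) against 0.141% (0.133% to 0.148%). Genes of the minus strand made up 0.527% (0.516% to 0.539%) against 0.369% (0.357% to 0.381%). These shares do not depend on how the libraries are scaled to each other, and 25 of the 37 genes had a larger share of mitochondrial reads in the PRMT5 overexpression library.

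Levels between mRNA and rRNA genes were compared in deposited FPKM, reads scaled to gene length and library total, because for 37 of 37 members this value equalled the count divided by the total and by the length of the locus, within 1%. The large ribosomal RNA MT-RNR2 (chrM:1671-3229) had the highest level of these, with 14376 FPKM in the PRMT5 overexpression library and 13501 FPKM in the vector control. MT-CO2, a copper-binding subunit of cytochrome c oxidase that takes electrons from cytochrome c, followed with 11304 against 9540.2 FPKM. The lowest of the 15 mRNAs and rRNAs was MT-ND6, with 583 against 362 FPKM; tRNAs, which are too short for this scale, were left out. The order of the 15 mRNAs and rRNAs by FPKM was the same in both libraries except that MT-ND3 and MT-ND5 changed places, at 2027 and 1923 FPKM in the PRMT5 overexpression library and 1523 and 1619 FPKM in the vector control. MT-RNR1, the small ribosomal RNA (chrM:648-1601), had 1584 against 1382 FPKM. On this scale the large rRNA stood 9.08-fold above it in the PRMT5 overexpression library and 9.77-fold above it in the vector control. The libraries come from polyadenylated RNA and rRNA tails are short, so FPKM need not follow the amounts of rRNAs and mRNAs in the cells.

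**Figure D2:**
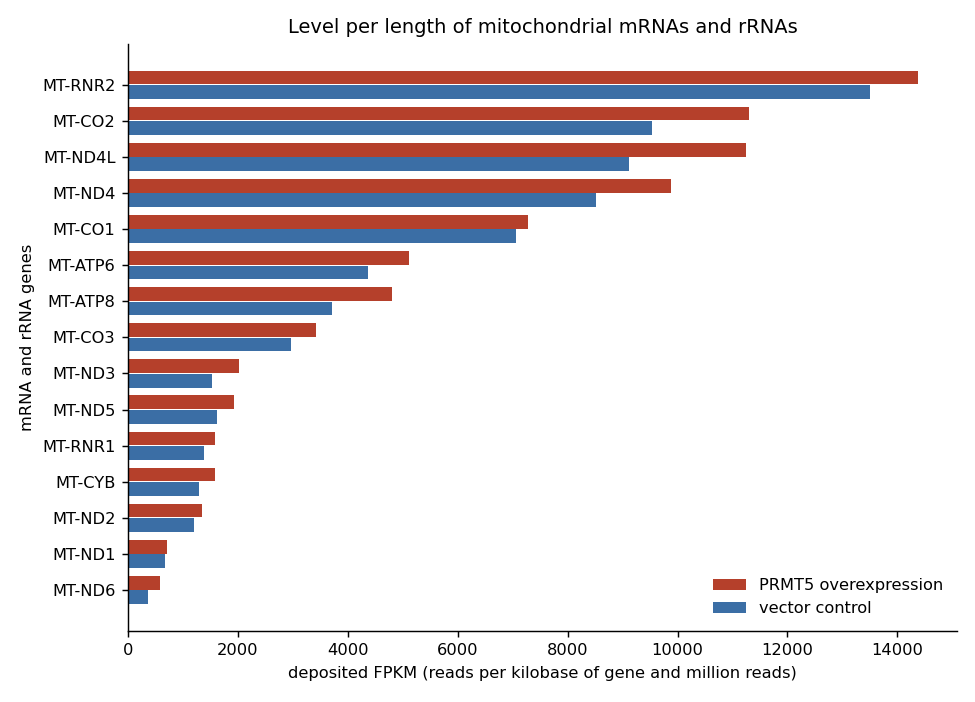
Deposited FPKM of the 15 mitochondrial mRNA and rRNA genes on a linear axis, with the PRMT5 overexpression library above the vector control library for each gene. Each bar is 1 library and has no error bar; MT-RNR2 is highest at 14376 and 13501 FPKM and MT-ND6 lowest at 583 and 362 FPKM.

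Pairs of genes that share an mRNA had levels near each other. MT-ATP8 and MT-ATP6, subunits of the proton channel of ATP synthase, overlap by 46 bases, and MT-ND4L and MT-ND4, subunits of the membrane arm of complex I, by 7. The shared stretches are shown because reads on them belong to both genes of a pair. In the stretch of MT-ATP8 and MT-ATP6 (chrM:8527-8572, plus strand) capitals mark the start codon of MT-ATP6 and the stop codon of MT-ATP8, and in that of MT-ND4L and MT-ND4 (chrM:10750-10776, plus strand) they mark the shared bases.
MT-ATP8 and MT-ATP6: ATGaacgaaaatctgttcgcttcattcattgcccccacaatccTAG
MT-ND4L and MT-ND4: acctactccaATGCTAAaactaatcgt
On the FPKM scale MT-ATP8 was at 0.941 of MT-ATP6 in the PRMT5 overexpression library and at 0.850 in the vector control. MT-ND4L was at 1.14 of MT-ND4 in the PRMT5 overexpression library and at 1.07 in the vector control. In both pairs the shorter gene gained on the longer one.

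The 13 mRNAs were all higher in the PRMT5 overexpression library, most of them by small amounts. Log2 ratios are of CPM after TMM scaling, PRMT5 overexpression over vector control. They ran from 0.07 to 0.72, with a median of 0.27, where 4118 genes averaging at least 1000 reads per library had a median of 0.01. A log2 ratio above 0 was found in 13 of 13 mRNAs and in 52.9% of those 4118 genes. Of the 13, only MT-ND6 was higher by 1.5-fold or more, and 1.46% of the 4118 genes were; 0 of the 13 were lower by 1.5-fold or more, and 1.17% of the 4118 genes were.

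**Figure D3:**
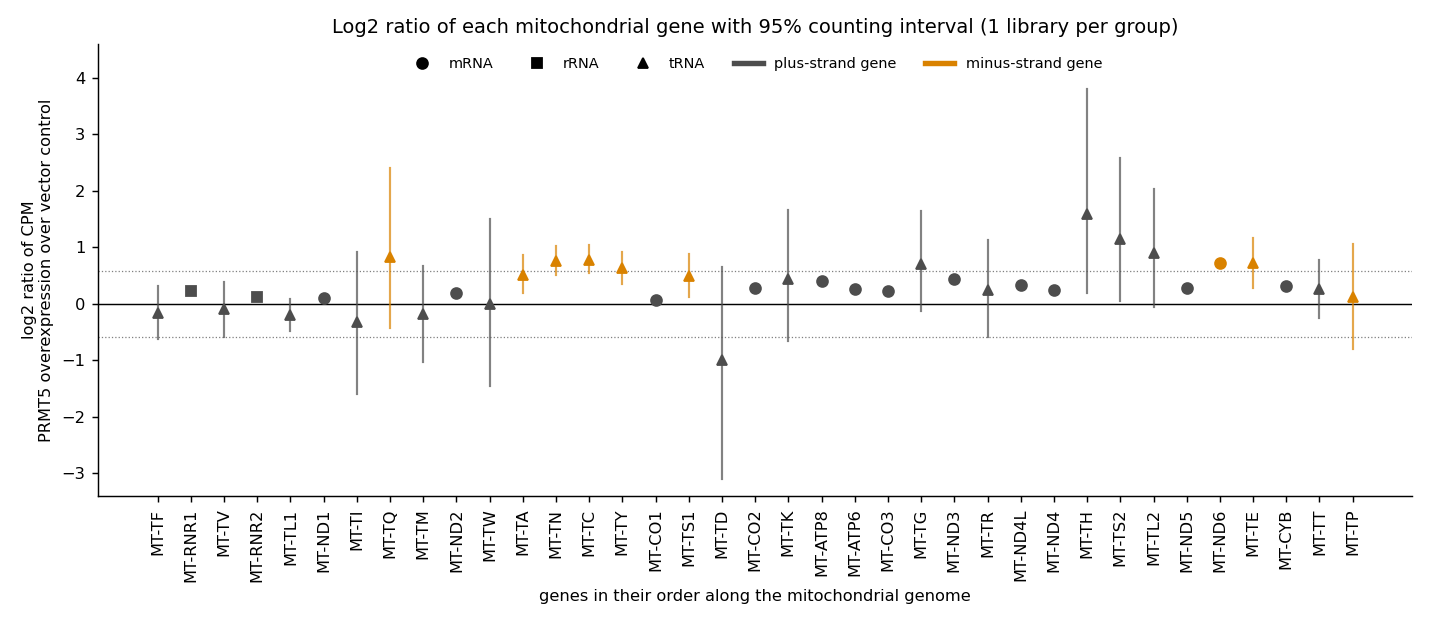
Log2 ratio of CPM, PRMT5 overexpression over vector control, for the 37 mitochondrial genes in genome order, with bars for 95% counting intervals and dotted lines at 1.5-fold. Marker shapes give the class and orange marks minus-strand genes; plus-strand mRNAs and rRNAs lie between 0.07 and 0.44, the minus-strand genes between 0.11 and 0.82, and the widest bars belong to tRNAs with few reads.

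Complex I, which passes electrons from NADH to ubiquinone, holds 7 of the subunits. MT-ND6 stood apart among them and is described with the minus strand. MT-ND3, a small membrane subunit (chrM:10059-10404), had 13963 reads in the PRMT5 overexpression library and 7442 in the vector control, 708 against 522 CPM. Its log2 ratio was 0.44 (interval 0.40 to 0.48), which made it the highest of the plus-strand mRNAs. MT-ND4L, with 66494 against 38203 reads, was at 0.33, MT-ND5, a proton-pumping subunit with 69385 against 41415 reads, at 0.28 and MT-ND4, another pumping subunit with 270866 against 165878 reads, at 0.24. The subunits encoded next to the rRNAs were lowest. MT-ND2, with 27828 against 17641 reads, had a log2 ratio of 0.19, and MT-ND1, with 13576 against 9117 reads, one of 0.11 and an interval of 0.07 to 0.15.

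Complex III is represented by MT-CYB, cytochrome b, which carries the quinone sites of the complex (chrM:14747-15887). It had 35744 reads in the PRMT5 overexpression library and 20654 in the vector control, 1813 against 1448 CPM. Its log2 ratio was 0.32 (interval 0.30 to 0.35).

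The subunits of complex IV, cytochrome c oxidase, split. MT-CO1, the subunit with the oxygen-reducing centre (chrM:5904-7445), was the mRNA closest to no difference, with 223269 reads in the PRMT5 overexpression library and 153919 in the vector control, 11326 against 10794 CPM. Its log2 ratio was 0.07 (interval 0.06 to 0.08). MT-CO2 (chrM:7586-8269) had 153927 against 92140 reads and a log2 ratio of 0.27 (interval 0.26 to 0.28). MT-CO3, a structural core subunit, had 53270 against 32882 reads and a log2 ratio of 0.23. The intervals of MT-CO1 and MT-CO2 did not overlap, although the genes lie on the same precursor with MT-TS1 and MT-TD between them. The share of mitochondrial reads on MT-CO1 was 14.9% in the PRMT5 overexpression library and 16.2% in the vector control, and on MT-CO2 it was 10.2% against 9.68%.

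The ATP synthase subunit MT-ATP8, the shortest of the mRNA genes at 207 bases, had 19798 reads in the PRMT5 overexpression library and 10846 in the vector control, for a log2 ratio of 0.40 (interval 0.37 to 0.43). MT-ATP6, with 69222 against 41965 reads, was at 0.25, with an interval of 0.24 to 0.27. The rRNAs were on the low side of the plus-strand genes. MT-RNR2 had 446188 against 297200 reads and a log2 ratio of 0.12 (interval 0.11 to 0.13). MT-RNR1, with 30082 against 18621 reads, was at 0.22, with an interval of 0.20 to 0.25.

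Among plus-strand mRNAs and rRNAs, log2 ratios were lower near the start of the heavy-strand precursor than further on. The rRNAs, MT-ND1, MT-ND2 and MT-CO1 lie between 0.07 and 0.22. The plus-strand mRNAs from MT-CO2 to MT-CYB lie between 0.23 and 0.44. Once genes were summed with their nuclear copies, MT-ND2 was at 0.25, above MT-CO3 at 0.23 and MT-ND4 at 0.24. The ranges of the earlier and later genes then overlapped. Over the 12 plus-strand mRNAs, Spearman's correlation of the log2 ratio with start position was 0.58 and with gene length -0.57, and it was -0.75 with the share of 50-base stretches also found in transcripts of nuclear genes. Without MT-ND3 and MT-ATP8, whose ratios were the highest of the 12, these became 0.76, -0.28 and -0.72 over 10 genes. Both genes were left out by the ratio itself, so this change cannot weigh position against length. Among the 12, position and shared sequence varied together, with a Spearman's correlation of -0.68, while length was at 0.15 with position and 0.23 with shared sequence. The genes also share 2 libraries and a precursor, so the values are descriptions of these genes only.

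Log2 ratios of mRNAs with a complete and an incomplete last codon overlapped. In 6 of the 13 mRNAs the reading frame ends in T or TA, and the poly(A) tail completes the stop codon. The last 18 bases of several mRNAs are shown for this, with the final codon, complete or not, in capitals.
MT-ND1 (chrM:4245-4262, plus): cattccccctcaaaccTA
MT-ND3 (chrM:10387-10404, plus): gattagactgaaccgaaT
MT-CYB (chrM:15870-15887, plus): aaatactcaaatgggccT
MT-CO1 (chrM:7428-7445, plus): gtatacataaaatctAGA
MT-ATP8 (chrM:8555-8572, plus): ttgcccccacaatccTAG
MT-ND6 (chrM:14149-14166, minus): attgctcgggggaatAGG
The 6 mRNAs with an incomplete codon (MT-ND1, MT-ND2, MT-CO3, MT-ND3, MT-ND4 and MT-CYB) had log2 ratios from 0.11 to 0.44 with a median of 0.23. The 7 with a complete one, among them MT-CO1 and MT-ND6 with AGA and AGG, ran from 0.07 to 0.72 with a median of 0.28.

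The minus-strand genes had higher summed reads per library size in the PRMT5 overexpression library, and by more than the plus-strand genes. Together the 9 minus-strand genes had 7923 reads in the PRMT5 overexpression library and 3512 in the vector control. The summed log2 ratio was 0.71 (interval 0.65 to 0.76), or 1.63-fold. The 28 plus-strand genes had 1494336 against 948432 reads and a summed log2 ratio of 0.19 (interval 0.19 to 0.19). The difference between the strands, which no scaling of the libraries can change, was 0.52 on the log2 scale, with a normal-approximation interval of 0.46 to 0.58. It was 0.48 without MT-ND6, 0.63 among tRNAs alone and 0.49 without the rRNAs. With 1 library per group, none of these differences could be tested against the spread between cultures.

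MT-ND6, a membrane subunit of complex I and the only mRNA of the minus strand (chrM:14149-14673), had 6097 reads in the PRMT5 overexpression library and 2683 in the vector control, 309 against 188 CPM. It was 1.64-fold higher, with a log2 ratio of 0.72 (interval 0.65 to 0.78). Its plus-strand neighbours MT-ND5 and MT-CYB were at 0.28 and 0.32. On the FPKM scale MT-ND6 was at 0.303 of MT-ND5 in the PRMT5 overexpression library and at 0.224 in the vector control. Nuclear transcripts held 17.9% of its 50-base stretches. Neither the tails nor the strand of its reads are known here, so these reads need not come from finished MT-ND6 mRNA.

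Between MT-ND2 and MT-CO1 lies a run of minus-strand tRNAs, MT-TA, MT-TN, MT-TC and MT-TY, whose sequences are given above. MT-TC had 462 reads in the PRMT5 overexpression library and 194 in the vector control, and a log2 ratio of 0.78 (interval 0.54 to 1.03). MT-TN had 437 against 186 reads and a log2 ratio of 0.76. MT-TY was at 0.63, from 332 against 155 reads, and MT-TA at 0.52, from 228 against 115 reads. Together the 4 had 1459 against 650 reads and a log2 ratio of 0.70 (interval 0.56 to 0.83), where the mRNAs on either side, MT-ND2 and MT-CO1, were at 0.19 and 0.07. The intervals of all 4 tRNAs lay above 0.

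The other minus-strand tRNAs lie outside the run of MT-TA, MT-TN, MT-TC and MT-TY. MT-TE, next to MT-ND6, had 146 reads in the PRMT5 overexpression library and 64 in the vector control, and its log2 ratio of 0.72 equalled that of MT-ND6 at this precision. MT-TS1, directly after MT-CO1, had 176 against 90 reads and a log2 ratio of 0.50 (interval 0.13 to 0.88). MT-TQ, the glutamine tRNA, with 18 against 7 reads, was at 0.82, and MT-TP, the proline tRNA, with 27 against 18 reads, at 0.11, and both intervals included 0. Of the 8 minus-strand tRNAs, 8 had a log2 ratio above 0, as did 49.1% of the 9068 genes averaging 10 to 400 reads, and 5 were at least 1.5-fold higher, as were 9.02% of those genes.

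The tRNAs of the plus strand showed no common direction. The 14 of them had 724 reads in the PRMT5 overexpression library and 509 in the vector control, and a summed log2 ratio of 0.04 (interval -0.12 to 0.21). MT-TL1, the leucine tRNA after the rRNAs, had 239 against 198 reads and a log2 ratio of -0.19. MT-TF, the first gene of the heavy-strand precursor, had 88 against 71 reads and was at -0.16, and MT-TV, between the rRNAs, had 84 against 65 reads and was at -0.10. MT-TT, the last on this strand, had 86 against 52 reads and a log2 ratio of 0.25. The intervals of these 4 included 0, so no difference was detectable for them at this depth.

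A cluster of plus-strand tRNAs between MT-ND4 and MT-ND5 was the exception among the sparse ones. MT-TH, the histidine tRNA, had 19 reads in the PRMT5 overexpression library and 4 in the vector control. MT-TS2, the second serine tRNA, had 26 against 8 reads, and MT-TL2, the second leucine tRNA, 32 against 12 reads. Their log2 ratios were 1.59 (interval 0.19 to 3.80), 1.15 (0.05 to 2.59) and 0.90 (-0.05 to 2.04), so the interval of MT-TL2 included 0. Together they had 77 against 24 reads and a log2 ratio of 1.19 (interval 0.54 to 1.94), and this trio was chosen after its values were seen. Without them the other 11 plus-strand tRNAs had 647 against 485 reads and a log2 ratio of -0.05. The remaining plus-strand tRNAs held 5 to 39 reads per library, and their intervals included 0. MT-TG, for glycine, was at 0.70 with 39 against 17 reads, MT-TK, for lysine, at 0.44 with 21 against 11, and MT-TR, for arginine, at 0.25 with 33 against 20. MT-TM, for methionine, was at -0.18 with 28 against 23 reads, MT-TI, for isoleucine, at -0.33 with 13 against 12, and MT-TW, for tryptophan, at -0.01 with 11 against 8.

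Of 20 tRNAs with a mean of 10 to 400 reads, 9 were at least 1.5-fold higher and 0 lower, and among all 9068 genes of that read range 9.02% were higher and 7.77% lower. The 9 were MT-TQ, MT-TN, MT-TC, MT-TY and MT-TE on the minus strand and MT-TG, MT-TH, MT-TS2 and MT-TL2 on the plus strand. Among the 37 genes, 10 of the 36 past 10 reads in a library were at least 1.5-fold higher and 0 lower, and of all 17777 genes past that floor 7.06% were higher and 5.33% lower. The tRNAs adjoin each other and their mRNAs on shared precursors, so their counts are not independent.

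**Figure D4:**
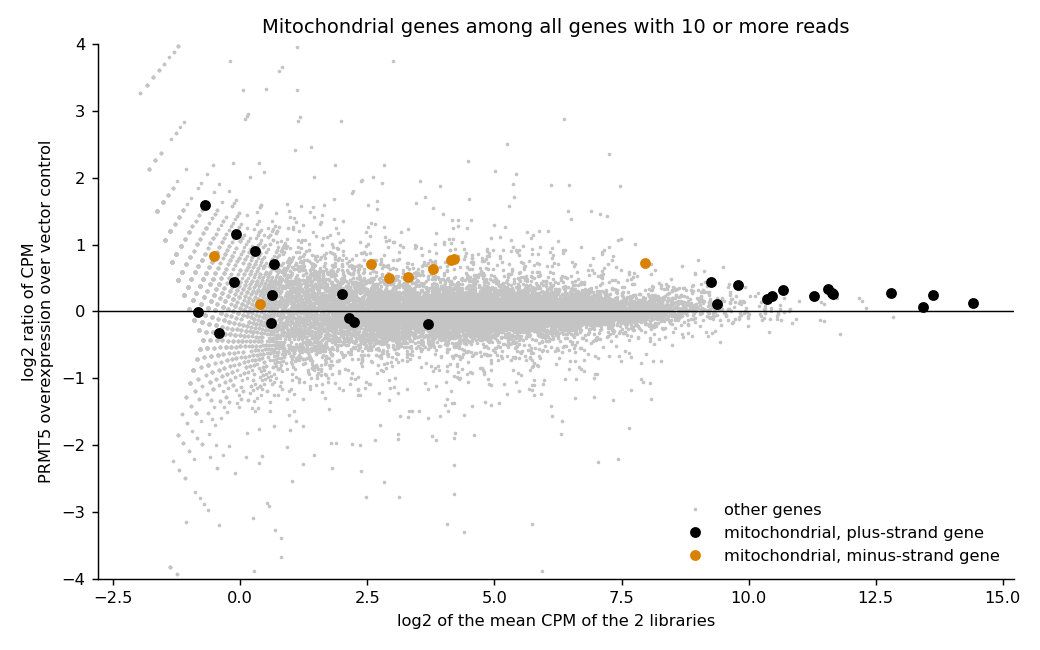
Log2 ratio of CPM, PRMT5 overexpression over vector control, against the log2 of the mean CPM of both libraries for genes past the floor of 10 reads in either library. Grey points are 17741 other genes, of which 25 lie beyond log2 ratios of -4 or 4 and are not drawn; black and orange points are mitochondrial genes of the plus and minus strand, and all minus-strand points lie above 0.

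Nuclear copies of mitochondrial DNA also held reads. The table lists 407 rows named as copies of mitochondrial mRNA or rRNA genes, 11 of them past the floor of 10 reads in either library. They held 24220 reads in the PRMT5 overexpression library and 14950 in the vector control, which is 1.61% and 1.57% of the reads on the mitochondrial genes themselves. Their summed log2 ratio was 0.23. Most of these reads lay on copies that stand together on chromosome 1, which share 43.5% to 61.9% of their 50-base stretches with the mitochondrial gene, so their reads cannot be assigned with certainty. MTND2P28 (chr1:629640-630683) had 6377 against 3129 reads and a log2 ratio of 0.56, where MT-ND2 was at 0.19. MTCO1P12 (chr1:631074-632616) had 5310 against 4312 reads and a log2 ratio of -0.17, where MT-CO1 was at 0.07. MTND1P23 (chr1:629062-629433) had 1686 against 970 reads and a log2 ratio of 0.33, where MT-ND1 was at 0.11. MTATP6P1 (chr1:633696-634376), at 0.32 from 9605 against 5572 reads, lay nearer to its mitochondrial counterpart MT-ATP6 at 0.25. On chromosome 5, MTND4P12 held 740 against 531 reads and a log2 ratio of 0.01, with 3.46% of its stretches in MT-ND4. Once each mitochondrial gene was summed with its copies, MT-ND2 was at 0.25, and the other mitochondrial genes stayed within their counting intervals.

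The nuclear genes for mitochondrial RNA, DNA replication, translation and biogenesis had a median near 0. Of 88 measured genes in 7 lists, 45 had a log2 ratio above 0, close to the 50.4% of all genes, and 43 below, with a median of 0.01; 3 were at least 1.5-fold higher and 1 lower, against 7.06% and 5.33% of all genes. The polymerase gene POLRMT had 1584 reads in the PRMT5 overexpression library and 1107 in the vector control and a log2 ratio of 0.05 (interval -0.06 to 0.16). TFAM, which packages mitochondrial DNA and opens its promoters, had 1439 against 1212 reads and a log2 ratio of -0.22 (interval -0.33 to -0.11). The 10 transcription genes had a median of 0.03 and the 8 genes for cutting the precursors one of 0.07.

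Genes for tails, stability and decay of mitochondrial RNA, 13 in all, had a median log2 ratio of -0.01, with 0 of them 1.5-fold apart. Of these, 6 were above 0 and 7 below. The largest ratio, that of PNPT1, was just under 1.5-fold, at 0.57 (interval 0.45 to 0.69) from 1684 against 821 reads. MTPAP was at 0.03 from 683 against 484 reads, LRPPRC at 0.07 from 5184 against 3578 and SLIRP at -0.06 from 883 against 668. SLIRP shares exon bases with SNW1. The 16 genes for rRNA and tRNA modification had a median of -0.06, and NSUN4, which methylates the small rRNA and helps assemble the mitochondrial ribosome, was the only one past 1.5-fold, at 0.86 from 653 against 259 reads. The 18 genes of DNA replication and the nucleoid had a median of 0.00 and 0 members past 1.5-fold.

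Among 16 mitochondrial translation factors the median was -0.02. TSFM, the exchange factor of the elongation factor TUFM, was at -1.01 from 257 against 375 reads, and at -0.88 once summed with the genes that share its exons. C12orf65, a ribosome rescue factor, was at 0.65 from 687 against 317 reads, and at 0.07 once summed with MPHOSPH9, which shares exon bases with it. Of the 8 measured nuclear factors of mitochondrial biogenesis, YY1, a zinc finger transcription factor, was at 0.96 from 4002 against 1485 reads, and the list had a median of 0.10.

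**Figure D5:**
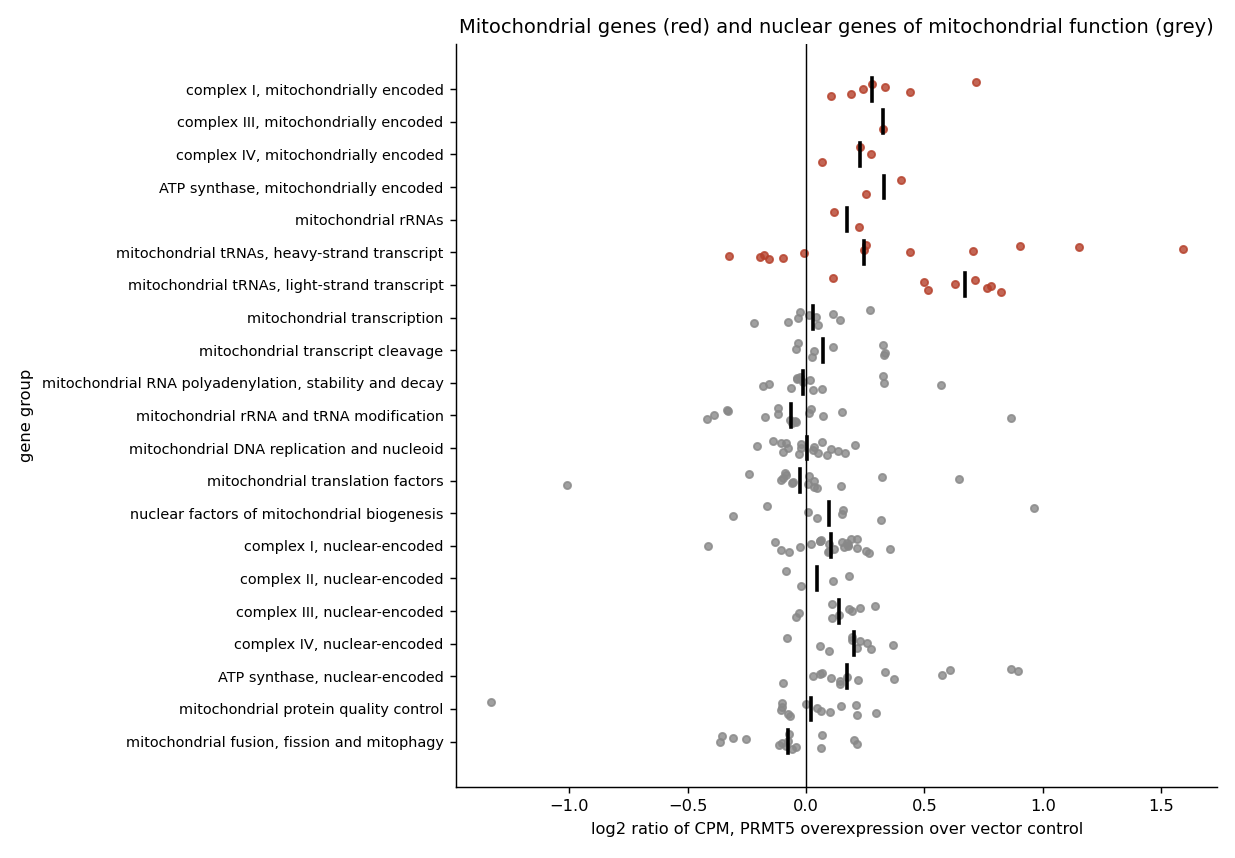
Log2 ratio of CPM, PRMT5 overexpression over vector control, for each gene past the floor of 10 reads in either library, in groups from the mitochondrial genome (red) and nuclear lists (grey), with a black bar at each group's median. Heavy-strand transcript means plus-strand genes and light-strand transcript minus-strand genes; the medians of the mitochondrial groups lie between 0.17 and 0.67 and those of the nuclear lists between -0.08 and 0.20.

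Nuclear-encoded subunits of the respiratory chain and ATP synthase also lay mostly above 0. Of 62 measured, 51 had a log2 ratio above 0, against 50.4% of all genes, and the median was 0.15. The difference from the mitochondrial subunits was not tested, and the ranges overlapped in complex I, complex IV and ATP synthase. The 24 nuclear complex I genes had a median of 0.11, where the 7 mitochondrial ones had 0.28, and the 9 of complex III had 0.14, where MT-CYB had 0.32. The 10 of complex IV had 0.20, where the 3 mitochondrial ones had 0.23, and the 15 of ATP synthase had 0.17, where MT-ATP6 and MT-ATP8 had 0.25 and 0.40. Complex II, which has no mitochondrial subunit, had a median of 0.05 over 4 genes. Of the 62 nuclear subunit genes 3 were at least 1.5-fold higher and 0 lower, against 7.06% and 5.33% of all genes. Among the 4118 genes averaging at least 1000 reads per library, 1.46% were higher and 1.17% lower, and some of the 62 lay below that depth. The 3 higher ones were ATP5ME at 0.89, ATP5MG at 0.86 and ATP5MF at 0.61, small membrane subunits of ATP synthase that lay above MT-ATP6 and MT-ATP8. ATP5MF was at 0.38 once summed with PTCD1, which shares exon bases with it.

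RNAs known to lack a poly(A) tail were sparse apart from RN7SL1 and RN7SL2, and several were lower in the PRMT5 overexpression library. Of 16 such structural RNAs, 6 passed the floor of 10 reads and 3 were at least 1.5-fold lower, against 5.33% of all genes past that floor. RN7SK, the RNA that holds back the elongation factor P-TEFb, had 27 reads in the PRMT5 overexpression library and 139 in the vector control, a log2 ratio of -2.78. The RNA components of RNase MRP and nuclear RNase P, RMRP and RPPH1, had 2 against 20 and 6 against 37 reads. RNU1-1, RNU5A-1, RNU6-1, SCARNA2, TERC, RNY1 and RNY3 were at 0 in both libraries, and the summed level of the list, mostly RN7SL1 and RN7SL2, was 578 against 580.2 CPM. All snRNA rows had 400 against 447 reads and a log2 ratio of -0.63, and all snoRNA rows 1418 against 1095 reads and one of -0.09. The nuclear-retained RNAs MALAT1 and NEAT1 were at -0.31 and -0.36. Whether these differences in RNA classes had a part in the mitochondrial values was not tested.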

How the data were processed

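Gene tables of poly(A) RNA-seq of Tu212 cells were used, 1 library each for PRMT5 overexpression and vector control. Per the submitters' processing notes, the tools were edgeR, StringTie 1.3.4b, HISAT2 2.1.0 and CASAVA 1.8 and the builds hg38 and GRCh38, with roles not listed; the annotation, the counter and its strand setting are not given in the sources used here. The raw read counts per gene were used as deposited by the authors, and FPKM values as deposited by the authors were used for levels between genes; 0 per-sample columns were left unused. Depth was 19908258 and 14119997 reads.

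Rows of the same symbol were summed. TMM factors (edgeR 4.0.16, R 4.3.3) were computed over genes past a floor of 10 reads in either library and were 0.990 for PRMT5 overexpression and 1.01 for the vector control. Log2 ratios of CPM used a prior count of 1. Higher and lower mean at least 1.5-fold. Nothing was tested between the groups. Named were all 37 members; of each nuclear list up to 3 genes at 1.5-fold or more with a mean of 50 or more reads; POLRMT, TFAM, LRPPRC, SLIRP and MTPAP; and the 5 nuclear copies with most reads. The members, lists and rules were chosen with earlier results of these data known. RMRP, RPPH1, MALAT1, NEAT1, PNPT1, the marker genes named and the split by strand of summed genes were added after values were seen. So were the correlations without MT-ND3 and MT-ATP8. Of 235 entries in the nuclear lists, 235 matched a symbol; TBRG4, also called FASTKD4, stands in 2 lists and was counted once where lists were pooled. Members had the same coordinates in GENCODE release 29 in 37 of 37 cases. Stretches of 50 bases were searched in all its transcripts on both strands. The procedure was tested on simulated data. Intervals came from scipy 1.17.1 and tables from pandas 2.3.3 under Python 3.11.15.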

Additional observations from a re-analysis of the deposited data

How the results depend on the processing

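The median log2 ratio of the mitochondrial mRNAs, 0.27, was 0.296 with DESeq2 1.42.0 size factors, 0.245 with total counts and no factor, 0.297 when the floor was dropped and 0.245 with deposited FPKM plus a pseudocount of 1. Prior counts of 0.1 and 5, a floor of 50 reads, scaling without mitochondrial genes and sums with nuclear copies left it within the counting interval of its middle gene. With a floor of 50 reads, 5 mitochondrial genes in place of 10 were at least 1.5-fold higher, since fewer genes are counted, and with no floor 1, MT-TD, was lower in place of 0. The mitochondrial share of reads, 7.55% against 6.74%, was 5.28% against 4.61% without the rRNA genes, 7.67% against 6.85% with nuclear copies added and 5.58% against 4.85% over protein-coding genes, all by construction of the share. The strand difference was 0.631 among tRNAs alone; its settings were chosen after seeing the data. Over the whole table, 1255 genes were higher by 1.5-fold and 947 lower; dropping the floor gave 5019 higher and 4272 lower, raising it to 50 reads gave 448 and 348, and deposited FPKM gave 326 and 223. Of 313 values recalculated for single mitochondrial genes, 274 stayed within their counting intervals, 39 moved and 0 genes past 1.5-fold changed sign. No paired analysis was possible because there is only 1 library per group. Depth limits the tRNAs, of which 10 had 50 or more reads in both libraries.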

Other observations

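Genes that keep mitochondrial proteins folded or degrade them, 14 in all, had a median log2 ratio of 0.02 with 0 of them 1.5-fold higher and 1 lower, against 7.06% and 5.33% of all genes. That gene was ATF5, a transcription factor of the mitochondrial stress response, with 85 reads in the PRMT5 overexpression library and 156 in the vector control and a log2 ratio of -1.33. It shares exon bases with NUP62, and the sum of both was at -0.21. The 15 genes of mitochondrial fusion, fission and mitophagy had a median of -0.08, with 4 of them above 0, against 50.4% of all genes, and 0 at 1.5-fold or more in either direction.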
